A study of Mus musculus with 26 samples.

Results

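Acta1, the skeletal muscle α-actin, was followed together with 9 contractile genes of the gut muscle layer, Acta2, Actg2, Myh11, Myl9, Mylk, Tpm2, Cnn1, Tagln and Des. These 10 of the 55487 genes in the count table were matched by symbol, and the question was whether Acta1 follows the muscle genes across genotype and time. Acta1 was chosen because it was among the largest rises in the knockout mice at 7 days, where it ranked 14 among the genes that rose with no overlap and a mean of at least 100 counts, and the other 9 were chosen by function. All 10 passed the filter on low counts in each comparison. Values of the 10 genes in the 7-day genotype comparison, and of Acta1 between the control groups, are therefore given as a description with no test.

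RNA from the proximal small intestine of 26 mice was sequenced from the 3′ ends of transcripts. Knockout mice (tg) carried a floxed gene and the Villin-creER T2 transgene, which is active in the epithelium and deletes the floxed gene there after tamoxifen. Controls (wt) were littermates with the same floxed alleles and no Cre, and mice of both genotypes received 5 daily tamoxifen injections at 8 to 12 weeks of age. Tissue was taken 3 days (7 mice per genotype) or 7 days (6 mice per genotype) after the last injection, and the pieces held the whole wall with epithelium, lamina propria and muscle. The transgene targets the epithelium and not the muscle, and the 9 muscle genes were read as markers of the muscle in each piece, where each had at least 85 counts in every library. Whole tissue does not show which cells their reads came from, so a part from other cells was not tested.

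The library totals ranged from 3720168 to 6338016 counts. Levels are given in CPM (counts scaled to a common library total). Transcripts of neighbouring organs were present in some libraries. The stomach list summed to over 1000 CPM in knockout 1 and controls 5 and 7 at 3 days and in control 2 at 7 days, and the pancreatic list to over 10000 CPM in knockout 2 and controls 2 and 3 at 3 days and in knockout 4 at 7 days. The labels name no batch, so that the day and any batch that goes with it cannot be told apart.

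Smooth muscle contracts when a rise in calcium activates myosin light chain kinase, which phosphorylates the myosin regulatory light chain and lets myosin pull on actin filaments. In the gut wall this machinery fills the circular and longitudinal muscle layers, with thinner strands in the muscularis mucosae and the villus core. The muscle actins are encoded by separate genes, of which Acta2 and Actg2 are those of smooth muscle and Acta1 is that of skeletal muscle. Many contractile genes are switched on by serum response factor (SRF) with its partners of the myocardin family, through a DNA element called the CArG box.

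The stretches upstream of the transcription start are shown for Acta1 and for the 3 other members that held 1 of the motifs searched. They come from RefSeq (GRCm38.p6), which had an entry for 7 of the 10 genes, and run 5′ to 3′ over 250 bases that end just before the start annotated there. That start is not the outermost start of the gene in GENCODE M21, the annotation used for gene positions here. It lies 24 bases outside the GENCODE gene for Acta1, and inside it by 217 bases for Acta2, 44 bases for Myl9 and 39740 bases for Mylk, whose stretch is therefore that of an internal start. Capitals mark a CArG box, the element CATTCC on either strand (MCAT, bound by TEAD factors) or TATAAA in each sequence. The CArG box was searched only in the strict form CCWWWWWWGG, where W is A or T. Forms with a mismatch stay in lower case, such as ccctatatgg and ccttgtttgg in the Acta2 stretch.
Acta1 (chr8:123894776-123895025, minus strand): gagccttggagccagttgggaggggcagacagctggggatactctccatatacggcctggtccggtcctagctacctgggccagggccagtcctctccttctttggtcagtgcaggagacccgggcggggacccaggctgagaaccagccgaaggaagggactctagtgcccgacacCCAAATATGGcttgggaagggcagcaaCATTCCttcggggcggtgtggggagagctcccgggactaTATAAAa
Acta2 (chr19:34255374-34255623, minus strand): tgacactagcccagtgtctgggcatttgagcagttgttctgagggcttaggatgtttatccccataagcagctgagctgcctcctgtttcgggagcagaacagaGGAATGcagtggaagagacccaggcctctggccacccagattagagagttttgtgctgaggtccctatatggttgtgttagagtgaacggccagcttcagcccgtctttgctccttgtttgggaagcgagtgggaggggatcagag
Myl9 (chr2:156775214-156775463, plus strand): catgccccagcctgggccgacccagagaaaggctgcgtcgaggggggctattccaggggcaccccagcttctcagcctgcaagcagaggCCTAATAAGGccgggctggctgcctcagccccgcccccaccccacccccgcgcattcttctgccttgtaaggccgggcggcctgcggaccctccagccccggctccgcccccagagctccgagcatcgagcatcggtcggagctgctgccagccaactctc
Mylk (chr16:34784700-34784949, plus strand): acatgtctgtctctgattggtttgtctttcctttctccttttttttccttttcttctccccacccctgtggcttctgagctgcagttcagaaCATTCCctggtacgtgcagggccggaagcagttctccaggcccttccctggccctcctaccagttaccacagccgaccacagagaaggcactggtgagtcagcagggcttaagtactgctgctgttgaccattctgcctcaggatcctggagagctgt

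The Acta1 stretch held 3 of the 4 motifs searched, with the CArG box beginning 73 bases, CATTCC 46 bases and TATAAA 7 bases before the RefSeq start. Myl9 held a CArG box 161 bases before the start, Mylk held CATTCC 158 bases before it, and Acta2 held CATTCC on the reverse strand, 146 bases before it. Tpm2, Cnn1 and Des had no match in this window, and the fourth motif, TGATGNAA, had none in any of the 7 stretches. Over all 32851 promoters of the table, 1.47% held a CArG box, 12.6% held CATTCC, 12.4% held TATAAA and 3.45% held TGATGNAA on either strand. These are matches of letters and not measured binding sites.

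Acta1 was higher in knockout mice already at 3 days, whereas none of the 9 other genes passed the test there. In the controls at 3 days Acta1 lay between 0.887 and 2.39 CPM, with a median of 1.25 CPM, which is 5 to 12 counts per library. In the knockout mice it lay between 2.52 and 46.8 CPM, with a median of 14.1 CPM and 12 to 211 counts. The groups did not overlap, but the margin was narrow, as knockout 1 at 2.52 CPM and control 3 at 2.39 CPM held 12 counts each. Knockouts 3, 4 and 5 were highest, at 46.8, 34.2 and 30.7 CPM, and knockouts 1 and 7 were lowest, at 2.52 and 5.33 CPM.

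The fitted log2 fold change of Acta1 at 3 days was 4.02 ± 0.59 (SE), a 16.2-fold rise with an adjusted p of 0.0014 in edgeR's quasi-likelihood test over 20760 genes. It was the sixth largest rise of these genes. In this comparison 1.43% of the genes tested passed the threshold (1.11% higher and 0.323% lower in the knockout mice), and 0.356% were higher in every knockout mouse than in every control. With library totals in place of TMM scaling the split of calls was 125 higher and 115 lower, in place of 230 and 67, the median of all genes moved from -0.03 to -0.14, and Acta1 stood at 3.88. The estimate lay between 3.24 and 4.62 under the alternative fits, with the lowest value when scores of pancreatic and stomach transcripts were added as covariates (adjusted p = 0.0171), and between 3.7 and 4.23 when each library was left out in turn. Without knockout 1, which had the highest stomach transcripts of its group, it was 4.22.

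**Figure D1:**
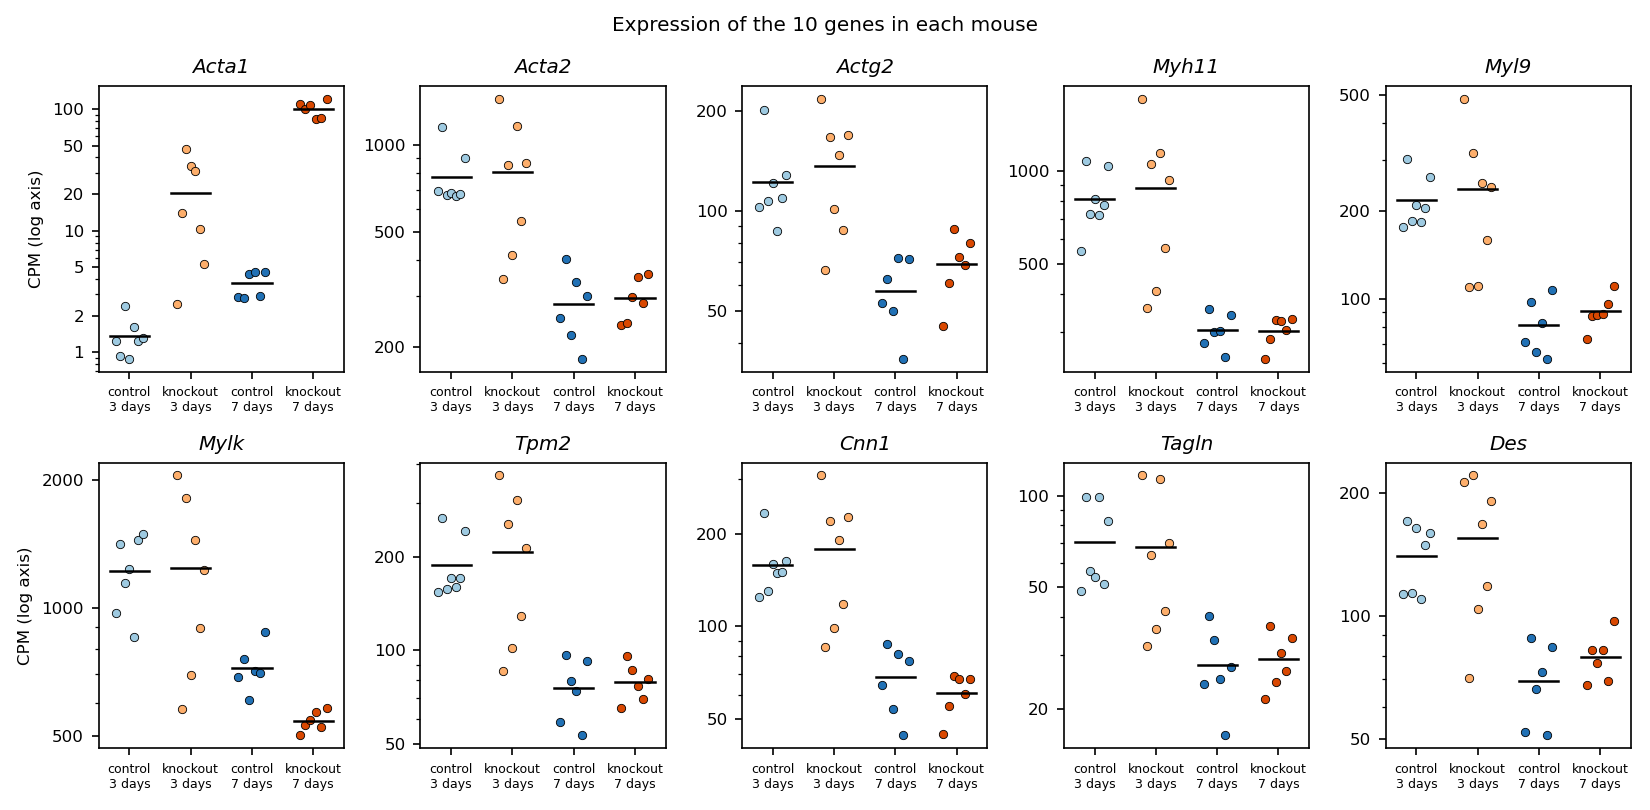
Expression of the 10 genes in each mouse, in CPM on a log axis whose range differs between panels, for control (wt) and knockout (tg) mice at 3 and 7 days. Points are mice and lines are group means; Acta1 lies between 0.887 and 2.39 CPM in the 3-day controls and between 82.6 and 121 CPM in the 7-day knockout mice, whereas the other genes lie lower at 7 days than at 3 days on average in both genotypes.

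None of the other 9 genes passed the test of edgeR or DESeq2 at 3 days, with edgeR's adjusted p between 0.668 (Des) and 0.985 (Tagln). In edgeR 0 of the 9 had an unadjusted p under 0.05, beside 2832 of all 20760 genes tested. Their log2 fold changes lay between 0.03 for Tagln, an actin-binding protein of smooth muscle, and 0.25 for Cnn1, the basic calponin of the thin filament. The 95% intervals give the size of change that these samples leave possible, from -0.41 to 0.66 for Acta2 and from -0.38 to 0.77 for Myh11, the smooth muscle myosin heavy chain. All 9 intervals lay below the interval of Acta1, which ran from 2.77 to 5.26. The direction of Tagln turned to a log2 change of -0.06 with library totals in place of TMM scaling.

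The knockout mice at 3 days spread widely in all 9 genes. Myh11 lay between 359 and 1714 CPM in them, with a median of 939 CPM, and between 549 and 1081 CPM in the controls, with a median of 778 CPM. Actg2, the enteric smooth muscle γ-actin, lay between 66.6 and 218 CPM in the knockout mice and between 87.1 and 202 CPM in the controls. The coefficient of variation of the 9 genes was 37.4% (Des) to 55.7% (Myl9) in the knockout mice against 19.1% (Des) to 32.3% (Tagln) in the controls. Knockout 1, lowest in Acta1, was highest in 8 of these 9 genes, and Des was highest in knockout 3. Knockout 2, which had 40635 CPM of pancreatic transcripts, was lowest in all 9. Knockout 1 also had the lowest sum of epithelial transcripts of its group, at 1892 CPM against a group median of 3975 CPM, and 10482 CPM of stomach transcripts against a group median of 14.4 CPM. The part of these differences in the values of Acta1 was not tested. In whole tissue, fewer cells of a type and less RNA per cell cannot be told apart.

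**Figure D2:**
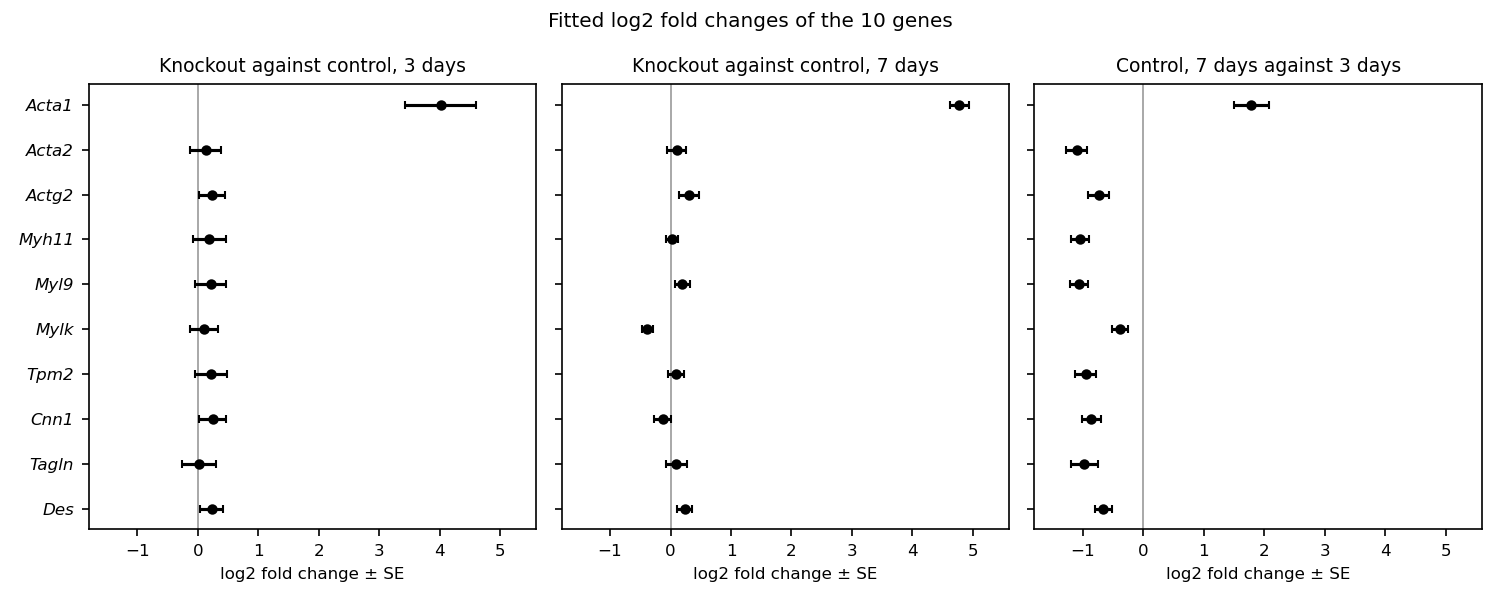
Fitted log2 fold changes of the 10 genes with their standard errors in the 3 comparisons, on 1 shared horizontal axis. Acta1 sits at 4.02, 4.78 and 1.79, and the 9 others stay between -1.10 and 0.31.

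By 7 days Acta1 was high in every knockout mouse. It lay between 82.6 and 121 CPM in them, with a median of 104 CPM and 456 to 671 counts, and between 2.82 and 4.62 CPM in the controls, with a median of 3.67 CPM and 13 to 29 counts. The lowest knockout mouse was thus far above the highest control, and the coefficient of variation among knockout mice was 14.8%, against 81.5% at 3 days. The log2 fold change was 4.78 ± 0.16, or 27.4-fold, which is a description because this contrast chose the gene.

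The 9 other genes stood between -0.39 and 0.31 at 7 days. Of all genes tested there, 38.5% passed the threshold (19.7% higher and 18.8% lower in the knockout mice). No call is given for the 10 genes in this comparison. Mylk, the myosin light chain kinase, lay between 503 and 582 CPM in the knockout mice, with a median of 538 CPM, and between 607 and 877 CPM in the controls, with a median of 707 CPM. Acta1 and Mylk were the 2 of the 10 genes whose groups did not overlap, as was so for 22.6% of all genes in either direction. The log2 fold change of Mylk was -0.39 ± 0.09, which is a description as well. Exons of Mylk overlap genes on the other strand (E130310I04Rik and Gm21691), and 76.9% of its values were fractions, so its reads may be shared with them. The same holds for Tagln (Gm48529 and Pcsk7, 53.8% of values fractions) and Des (Gm15179, 34.6%), and the other 7 genes had no such overlap and no fractions.

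The remaining 8 genes overlapped between the genotypes at 7 days. Myh11 was nearly equal, with medians of 316 CPM in the knockout mice and 302 CPM in the controls and a log2 fold change of 0.03 ± 0.10. Acta2, the vascular and visceral smooth muscle actin, had medians of 291 and 277 CPM and a log2 fold change of 0.10 ± 0.15. Actg2 had medians of 70.7 and 57.5 CPM and the highest log2 fold change of the 8, at 0.31 ± 0.16. Myl9, the regulatory light chain, stood at 0.20 ± 0.12, Tpm2, β-tropomyosin, at 0.09 ± 0.14, Tagln at 0.09 ± 0.17 and Des, the muscle intermediate filament desmin, at 0.23 ± 0.13. Cnn1 stood at -0.13 ± 0.14, and at 0.11 with the covariates for transcripts of neighbouring organs.

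Between 3 and 7 days the 9 muscle genes and Acta1 of the control mice moved apart. All 9 muscle genes fell by edgeR's test, where 16.3% of the 20646 genes tested fell and 19.7% rose. The log2 fold changes were -1.10 ± 0.18 for Acta2, -1.07 ± 0.15 for Myl9, -1.05 ± 0.15 for Myh11, -0.98 ± 0.23 for Tagln, -0.96 ± 0.17 for Tpm2, -0.86 ± 0.16 for Cnn1, -0.74 ± 0.17 for Actg2, -0.66 ± 0.15 for Des and -0.39 ± 0.14 for Mylk. The adjusted p lay between 6.27e-05 (Myl9) and 0.0337 (Mylk). In CPM, 8 of the 9 were lower in every 7-day control than in every 3-day control, as were 15.0% of all genes, and Mylk overlapped.

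Acta1 lay at 2.82 to 4.62 CPM in the 7-day controls and at 0.887 to 2.39 CPM in the 3-day controls, so that these groups did not overlap either, in the other direction. The margin was narrow, as control 3 at 3 days held 12 counts and control 2 at 7 days held 13. Its log2 fold change was 1.79 ± 0.28, and 3.94% of all genes were higher in every 7-day control. With library totals in place of TMM scaling the median of all genes moved from -0.06 to -0.41 and the split of calls from 4077 higher and 3364 lower to 1977 higher and 7372 lower, and Acta1 then stood at 1.43 and all 9 muscle genes remained lower and past the threshold. The call of Mylk was lost without control 2, 6 or 7 of the 3-day mice or control 1, 3, 4 or 5 of the 7-day mice (adjusted p from 0.0531 to 0.0774). In the same comparison 9 of 10 epithelial genes rose (8 of 10 with library totals) and 14 of 14 genes of enteric neurons and glia fell. The part of tissue make-up in the fall of the muscle genes was not tested.

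The knockout mice had the same order of days. Acta1 had medians of 14.1 CPM at 3 days and 104 CPM at 7 days without overlap between the days (6.37% of all genes were higher in every 7-day knockout mouse), and Myh11 had medians of 939 and 316 CPM and Cnn1 of 191 and 63.9 CPM, also without overlap (10.2% of all genes were lower in every one). The other 7 genes overlapped between the days, with group means at 7 days of 0.367 (Acta2) to 0.511 (Des) of those at 3 days.

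Within a library, Acta1 was set against Myh11, a ratio that does not depend on the library total. For every 1000 counts of Myh11 the 3-day controls held 0.860 to 3.30 counts of Acta1 (median 1.6) and the 3-day knockout mice 1.47 to 84.1 (median 26.9). Knockout 1, at 1.47, lay inside the range of the controls, and the other 6 knockout mice lay above it. The mean log2 ratio differed by 3.26 between the genotypes (two-sided exact permutation test, p = 0.00291, adjusted over both ratios tested 0.0035). With Actg2 as the denominator the difference was 3.11 (exact p = 0.0035). At 7 days the counts of Acta1 for every 1000 of Myh11 were 7.94 to 15.2 in the controls and 253 to 445 in the knockout mice, with no overlap.

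**Figure D3:**
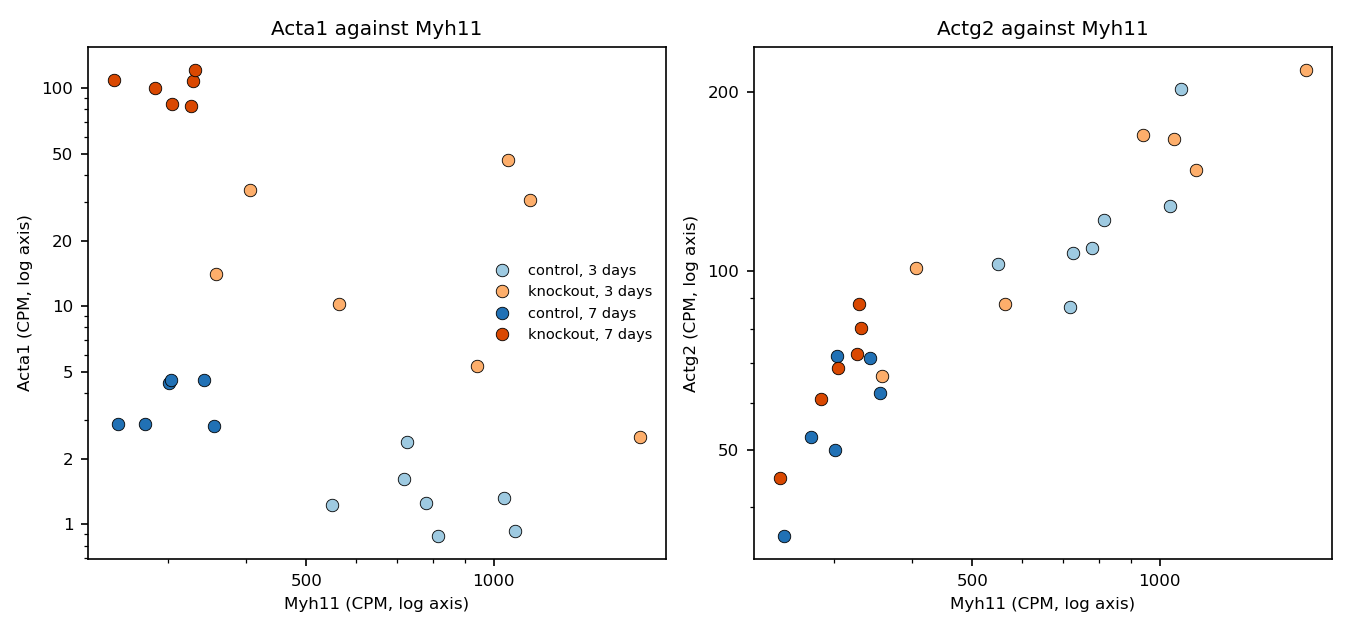
CPM of Acta1 (left) and Actg2 (right) against CPM of Myh11 in each of the 26 mice, on log axes. Actg2 is higher where Myh11 is higher, whereas the 7-day knockout mice hold the highest Acta1, 82.6 to 121 CPM, at Myh11 values between 246 and 331 CPM.

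Mouse by mouse, the 9 muscle genes varied together, and no covariation of Acta1 with them passed a test. After the mean of each of the 4 groups was removed from log2 CPM, Pearson's r over the 26 mice was 0.61 to 0.95 among the 36 pairs of muscle genes, with a median of 0.88. These values are a description, as genes of 1 library share its total and its tissue piece. For Acta1 with each of the 9 genes r lay between -0.33 (Myl9) and -0.14 (Des), and Spearman's rho between -0.16 (Cnn1) and 0.01 (Tpm2). None passed a permutation test within groups (raw p of r 0.332 to 0.684, adjusted 0.681 to 0.684; raw p of rho 0.538 to 0.972, adjusted 0.972). In the controls Acta1 held 5 to 12 counts at 3 days and 13 to 29 at 7 days, so counting noise can hide covariation there. Its coefficient of variation was 81.5% in the 3-day knockout mice and at most 37.1% in the other groups, so those mice weigh most in r. The lack of a call therefore does not show that Acta1 varies apart from the muscle genes.

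Leaving out the mice farthest from the median of the muscle gene, r lay between -0.44 (Des) and 0.12 (Mylk). Those mice were knockouts 1 and 2 at 3 days for 7 of the 9 genes. Within the 3-day mice r was -0.39 to -0.21, and within the 7-day mice it was 0.06 to 0.40. Without knockout 1 of the 3-day mice r ran from -0.03 to 0.18. Within single groups it was -0.72 to -0.06 in 3-day controls, -0.38 to -0.17 in 3-day knockout mice, 0.07 to 0.55 in 7-day controls and -0.14 to 0.36 in 7-day knockout mice, and the smallest of the 36 exact permutation p-values was 0.0562 (adjusted 0.969).

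Set against lists of other cell types, the centred values of Acta1 stood closest to epithelial genes among the 12 sets compared, each of 6 genes or more. Only genes tested at both days with a mean of at least 50 counts entered. Some lists were thus shortened, such as that of enteric neurons and glia, from 14 genes to 6. The median r was 0.46 over 10 epithelial genes, from 0.19 (Krt18) to 0.68 (Krt20), and all 10 were positive, beside a median of -0.07 over 9608 genes. It was -0.20 for the 9 muscle genes, -0.48 for 12 fibroblast and matrix genes, -0.40 for 9 endothelial and pericyte genes and -0.41 for 6 genes of enteric neurons and glia. The points share libraries, tissue pieces and the wide spread of the 3-day knockout mice, and no test was made. Knockout 1 at 3 days was lowest of its group both in Acta1 (2.52 CPM) and in the epithelial sum (1892 CPM). The epithelial r without this mouse is not given here, so its part in the median of 0.46 was not tested.

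**Figure D4:**
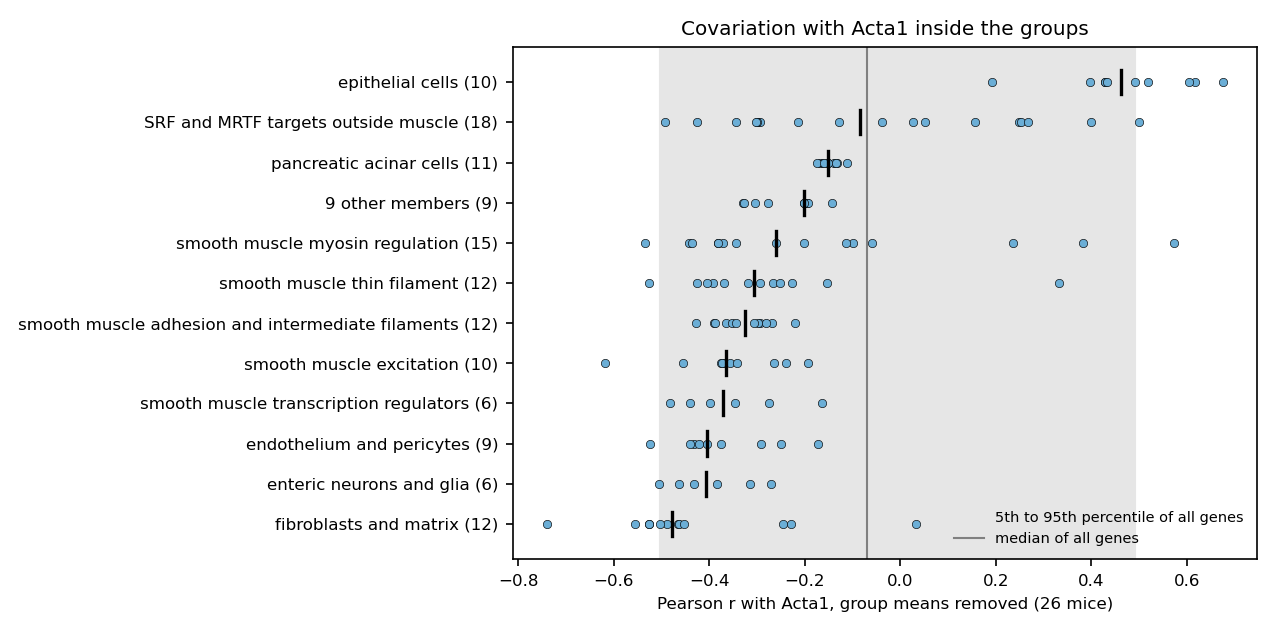
Pearson's r with Acta1 for the genes of 12 lists, from log2 CPM with the group means removed over 26 mice. The genes shown had a mean of at least 50 counts, their number is in brackets, and black bars are list medians. The grey band spans the 5th to the 95th percentile of all genes, -0.50 to 0.49, and the epithelial genes stand at the right with a median of 0.46.

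The genes most like Acta1 by this centred r were not muscle genes. They were Gdf9, a growth factor of the oocyte (r = 0.78), Igsf23 (0.77), Ctnna1, α-catenin of cell junctions (0.75), Areg, the EGF receptor ligand amphiregulin (0.73), and Dsg2, a desmosomal cadherin (0.73). Spearman's rho of the 5 was lower, 0.37 to 0.49. Their r was 0.81 to 0.97 in the 3-day knockout mice and -0.70 to 0.95 in the other groups. These 5 were picked as the highest of 9608 genes by r in the same libraries. The size of r therefore follows from the choice and was not tested. At 3 days the log2 fold changes were 5.13 for Areg, 4.10 for Gdf9, 2.0 for Igsf23, 0.75 for Dsg2 and 0.36 for Ctnna1. At 7 days the log2 fold changes were 6.38 for Gdf9, 5.88 for Areg, 2.21 for Igsf23, 1.25 for Dsg2 and 0.46 for Ctnna1. These changes are a description with no call, as the genes were picked in the same libraries by a mean of at least 50 counts and by r. Gdf9, with means of 0.83 and 0.73 CPM in the 3-day and 7-day controls, met that limit only through the knockout mice.

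Other genes of the smooth muscle apparatus were taken from 5 lists of 70 genes in all. At 3 days 69 were tested, of which 1 rose and none fell in edgeR's test. An unadjusted p under 0.05 was found for 5 of the 69, beside 2832 of all 20760 genes tested. The median log2 fold change of the 69 was -0.04 beside -0.03 for all genes. The gene that rose was Rock2, a kinase that restrains myosin phosphatase (0.55 ± 0.12, adjusted p = 0.0365). Its call was lost without knockout 2, 3, 4 or 7 or without any 1 of the 7 controls (adjusted p from 0.0574 to 0.0866). DESeq2 called Rock1 as well as Rock2 and no other gene of these lists.

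At 7 days 19 of 68 tested genes of the smooth muscle lists rose and 8 fell, where 19.7% of all genes tested rose and 18.8% fell, with a median log2 fold change of 0.16 beside -0.02 for all genes. In the thin filament list 2 of 12 rose and 3 fell. Tpm1, α-tropomyosin (0.55 ± 0.10), and Cald1, caldesmon (0.55 ± 0.12), rose, and Ldb3, a Z-disc protein, fell furthest (-2.49 ± 0.17), from 48.7 ± 10.7 CPM in controls to 8.54 ± 1.85 CPM in knockout mice (SD, n = 6 each). Pdlim3 fell by 0.39 on the log2 scale. The genotype effect on Ldb3 differed between the days, by -2.57 at 7 against 3 days in edgeR's interaction term (adjusted p = 1.33e-07), which 18.4% of 19604 genes passed.

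In the myosin regulation list 6 of 15 rose and 2 fell at 7 days, beside 19.7% and 18.8% of all genes. Rock2 (1.47 ± 0.10) and Rock1 (0.57 ± 0.10) rose, and Rhoa, the GTPase upstream of both kinases (-0.53 ± 0.11), was among those that fell. These genes are used by many cell types, so their level in whole tissue is not that of muscle alone. Adhesion and intermediate filament genes rose in 6 and fell in 3 of 16, with Actn1, α-actinin (0.73 ± 0.14), the laminin receptor subunit Itga7 (0.73 ± 0.21), vimentin, Vim (0.68 ± 0.13), and Pgm5 (0.38 ± 0.11) among those that rose.

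Excitation genes rose in 4 of 16 at 7 days and none fell, beside 19.7% and 18.8% of all genes. Those that rose included the muscarinic receptors Chrm2 (0.59 ± 0.15) and Chrm3 (0.52 ± 0.19) and the nitric oxide receptor subunit Gucy1a1 (0.35 ± 0.12). With library totals 2 of the 16 passed. Of 9 regulators of smooth muscle transcription only Mrtfa, the SRF coactivator, rose (0.37 ± 0.12). Between the control groups 43 of the 68 genes fell and 6 rose from 3 to 7 days, beside 16.3% and 19.7% of all genes. Their median was -0.86 beside -0.06 for all genes, and these control mice are shared with the genotype comparisons.

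Acta1 is a gene of striated muscle, and the counts of the rest of that apparatus varied widely between genes. Tpm3 averaged 509 counts per library, Tnnt2 117, Ckm 29.0, Ttn 24.5, Neb 18.7, Myl1 17.7 and Tnnt1 15.1, which were picked after their values were seen. Of 43 genes of the striated sarcomere and its regulators 16 never exceeded 3 counts in any library, and 5 of these had no count at all, namely Myh4, Myh8, Myl2, Pvalb and Myod1. The list summed to 117 to 216 CPM over the 26 libraries, of which Tpm3, a tropomyosin of many cell types, held 63.5% on average. At 3 days none of the 22 genes tested passed edgeR's or DESeq2's test. In edgeR 0 of the 22 had an unadjusted p under 0.05, beside 2832 of all 20760 genes tested. At 7 days 1 of 21 rose, the cardiac troponin gene Tnnt2 (1.30 ± 0.18), from 9.47 ± 3.34 CPM to 22.8 ± 3.93 CPM (SD, n = 6 each), and 4 fell. Of all genes tested there, 19.7% rose and 18.8% fell.

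Of the actins outside the 10 genes, Actb, cytoplasmic β-actin, was listed at 2726 to 5084 CPM at 3 days and did not pass the test there (0.22 ± 0.15). At 7 days it was lower in the knockout mice, with means of 4676 ± 288 against 6151 ± 558 CPM (SD, n = 6 each) and a log2 fold change of -0.37 ± 0.09 (adjusted p = 0.00226). Actc1, the cardiac α-actin, stayed at or below 2.01 CPM. Actg1, cytoplasmic γ-actin, was listed at 0 to 7 counts, although most cells use this gene, so its level is not read from these files. Actin genes are closely alike in their coding parts, and whether reads of one actin were counted to Acta1 was not tested. The exons of Acta1 (chr8:123891769-123894751, minus strand) overlap no other annotated gene.

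Of the SRF targets outside muscle none of 24 tested passed edgeR's test at 3 days, and DESeq2 called none. In edgeR 6 of the 24 had an unadjusted p under 0.05, beside 2832 of all 20760 genes tested. At 7 days 6 of 24 rose and 2 fell, beside the same 19.7% and 18.8% of all genes. Egr1, an immediate early factor (1.66 ± 0.27), Tpm4 (1.16 ± 0.13), Filip1l (0.53 ± 0.11) and Ier2 (0.39 ± 0.15) were among those that rose, and Actb among those that fell, with 5 higher and 3 lower when library totals were used.

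**Figure D5:**
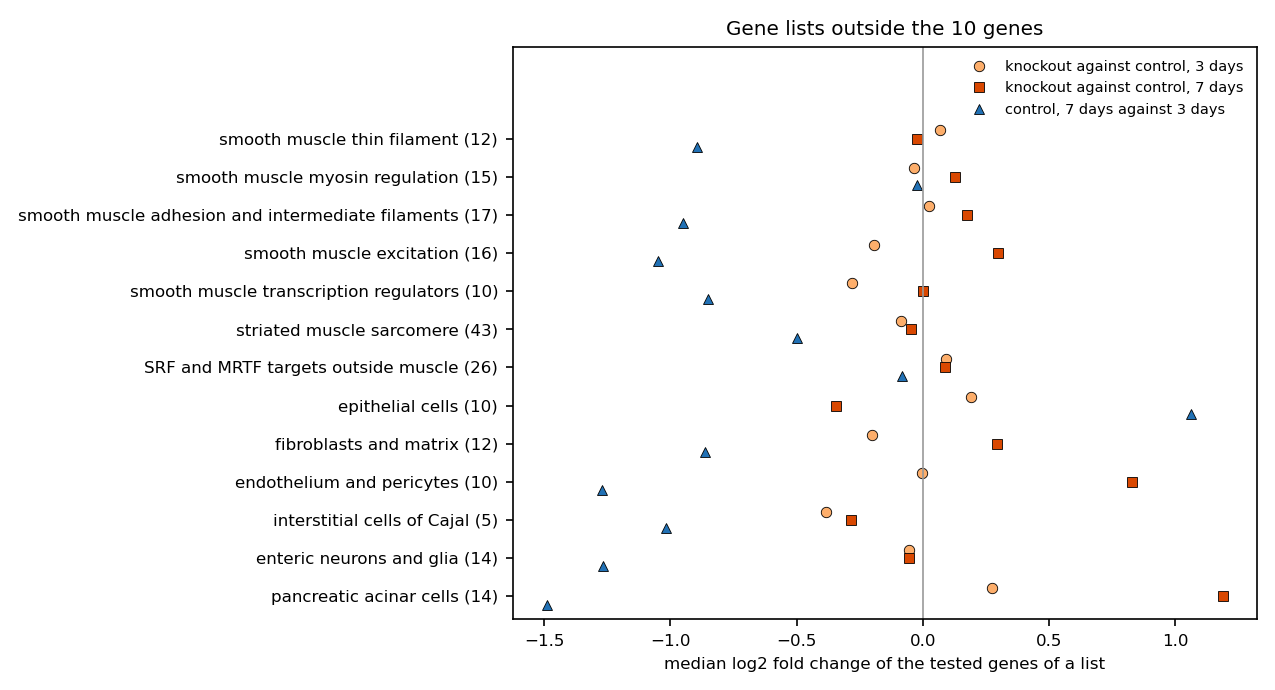
Median log2 fold change of the tested genes of 13 lists (number of listed genes in brackets) for the 3 comparisons. The smooth muscle lists lie between -0.28 and 0.07 for the genotype comparison at 3 days. But for myosin regulation, they lie between -0.85 and -1.05 for the controls at 7 against 3 days.

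Markers of other cells moved with the same comparisons. Of all genes tested, 19.7% rose and 18.8% fell in the knockout mice at 7 days. At 7 days 9 of 10 endothelial and pericyte genes rose, with Emcn (1.45 ± 0.17), Kdr (1.24 ± 0.12), Cdh5 (1.08 ± 0.18) and Tie1 (1.03 ± 0.13) as examples, and their sum was 406 to 492 CPM in knockout mice and 211 to 295 CPM in controls. Of 10 epithelial genes 6 fell and 2 rose, with Vil1, villin, at -1.57 ± 0.18 and Krt18 at 1.5 ± 0.10, and their sum was 4455 to 5108 CPM in knockout mice and 5518 to 6806 CPM in controls. At 3 days none of these 20 genes passed edgeR's or DESeq2's test. In edgeR 1 of the 20 had an unadjusted p under 0.05, beside 2832 of all 20760 genes tested. The part of these shifts in the values of the muscle genes was not tested.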

How the data were processed

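Libraries of the proximal small intestine of 26 mice were prepared with the Lexogen QuantSeq 3′ FWD kit. According to the methods of the study, the authors trimmed reads with cutadapt 2.10, aligned them with Subread to GRCm38 (mm10) plus spike-in sequences, and counted them on Ensembl exons with featureCounts 2.0.1, keeping primary alignments above a mapping quality limit and splitting reads that overlapped several genes into fractions. No strand option is given in the sources used here. The deposited values are estimated counts per gene, of which 95.0% were whole numbers. A second deposited table holds CPM, which are the same counts scaled to the total of each library. The 92 spike-in entries were at 0 and left out. No 2 libraries held identical values, and each library is described as 1 mouse.

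Rounded counts went into edgeR 4.0.16 under R 4.3.3 for quasi-likelihood tests (TMM scaling, 1 fit per comparison, Benjamini-Hochberg adjusted p under 0.05 over all genes tested). Genes with 0 counts in more than 50% of the libraries of either group were left out. Standard errors were derived from the F statistic and the log2 fold change, and intervals are at 95%. The design assumed counts that might hold fractions, and the scripts were tested on simulated data. Ratios used log2 of counts with 1 count added. Correlations used log2 of CPM plus 1 after removal of group means, with 100000 permutations within groups (20000 where libraries were left out). Levels are printed in CPM by library total and fold changes come from the fits with TMM factors, so the 2 can differ. Depth limits low genes such as Acta1 in the controls, and 3 counts per library is the floor used.

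The 10 genes, the lists and the tests were chosen with earlier results of these data known. Genes outside the 10 were named by rule, as at most 4 per list at 7 days and 2 at 3 days by size of change among called genes averaging 50 counts or more, the other actins, defining genes at or near 0, and the 5 genes most like Acta1. The targeted gene and 1 listed gene are not reported here. Alternatives were DESeq2 1.42.0 with its Wald test, its size factors within edgeR, filterByExpr or no filter, all 26 libraries in 1 fit, a 2-fold minimum, the replicate number as a block, each library left out, another added count for logs and ratios, TMM-scaled CPM, single days for correlations, and Spearman's rho. After the data were seen, library totals, covariates for pancreatic and stomach transcripts, and fits without libraries high in them were added. Promoters are from RefSeq (GRCm38.p6), and gene positions and exon overlaps from GENCODE M21 (GRCm38).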

Additional observations from a re-analysis of the deposited data

Results flagged for a closer look

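Some values stood apart from the rest of their group by Dixon's test, 8 of 72 groups of values tested, where chance gives about 3.6. Among the 10 genes these were Actg2 at 202 CPM and Cnn1 at 233 CPM in control 2 at 3 days, each the highest of its group, in 2 of 40 groups. That library also held pancreatic transcripts above 10000 CPM. The striated sarcomere list summed to 149.8 CPM in control 2 at 7 days, the highest of its group. Pancreatic transcripts were highest in knockout 2 at 3 days (40635 CPM) and in knockout 4 at 7 days (19375 CPM). Stomach transcripts were highest in control 5 (25970 CPM) and knockout 1 (10482 CPM) at 3 days and in control 2 at 7 days (12047 CPM).

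The genotype effect of 13 named genes outside the 10 differed between 7 and 3 days by the interaction term of edgeR over 19604 genes, where 18.4% of genes passed. On the log2 scale the effect at 7 days minus that at 3 days was 1.24 for Emcn, 1.17 for Tie1, 1.06 for Krt18, 1.01 for Cdh5, 0.95 for Rock2, 0.92 for Actn1, 0.90 for Kdr, 0.80 for Tpm4 and 0.80 for Vim. It was -2.57 for Ldb3, -1.77 for Vil1, -0.58 for Actb and -0.45 for Rhoa. The adjusted p lay between 1.33e-07 (Ldb3) and 0.0324 (Rhoa). No interaction is given for the 10 genes, since it holds the contrast that chose Acta1.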

How the results depend on the processing

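The call of Acta1 at 3 days, the 0 calls for its correlations and its ratios to Myh11 (2.89 to 3.85 with 1 library left out) and Actg2 (2.84 to 3.63) stayed on their side of the threshold under every alternative run. With 1 library left out, the count past the threshold was 1 of the 10 genes at 3 days and 8 to 9 of the 9 muscle genes between the controls. Between the controls it was 3 with a 2-fold minimum. No such count is given for the 10 genes at 7 days. Over the gene lists outside the 10, 1 gene passed at 3 days, against 3 with DESeq2, with all 26 libraries or without libraries high in stomach transcripts, and 0 with no filter, library totals, covariates, a 2-fold minimum or the replicate block, and 0 to 5 with 1 library left out. At 7 days 71 passed, against 22 with a 2-fold minimum. Calls over all genes at 3 days were 297, against 769 with DESeq2, 810 with all libraries, 486 or 198 without libraries high in stomach or in either organ's transcripts, 177 with covariates and 171 to 779 with 1 library left out (779 without knockout 1).

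The labels do not say whether a shared replicate number pairs the mice, and the correlations of deviations cannot settle it. Deviations of same-numbered mice correlated between -0.33 and 0.36, and 2 of 7 mice at 3 days correlated best with their own number. With the replicate block 99 genes were called at 3 days, Acta1 stood at 3.72 (adjusted p = 0.0021), Tagln at -0.051, and Mylk between the controls lost its call (-0.32, adjusted p = 0.112).

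Small changes at 3 days changed sign, none of them called. Acta2 (-0.027) and Mylk (-0.040) did so without libraries high in stomach transcripts, and Tagln (-0.057) with library totals. With 1 library left out Acta2 ran from -0.050 to 0.25, Myh11 from -0.027 to 0.32, Myl9 from -0.031 to 0.33, Mylk from -0.032 to 0.22 and Tagln from -0.16 to 0.15. The r of Acta1 in the 7-day mice alone was 0.063 with Acta2, 0.32 with Actg2, 0.14 with Myh11, 0.21 with Myl9, 0.064 with Mylk, 0.34 with Tpm2, 0.10 with Cnn1, 0.10 with Tagln and 0.40 with Des. Without libraries high in stomach transcripts it was 0.089 with Acta2, 0.11 with Actg2, 0.10 with Myh11, 0.11 with Myl9, 0.22 with Mylk, 0.20 with Tpm2, 0.00079 with Cnn1, 0.12 with Tagln and 0.13 with Des. With 1 mouse left out it ran from -0.43 to 0.043 (Acta2), -0.35 to 0.080 (Actg2), -0.49 to 0.075 (Myh11), -0.57 to 0.075 (Myl9), -0.48 to 0.18 (Mylk), -0.36 to 0.16 (Tpm2), -0.38 to 0.10 (Tagln) and -0.39 to 0.087 (Des), the upper end being without knockout 1 at 3 days. Spearman's rho with Tpm2 was 0.0099. The causes were not tested.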
